A study of Mus musculus with 26 samples.

Results

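Chromatin modifying enzymes add or remove methyl and acyl groups on DNA and on histones, the proteins around which DNA is wound. They were followed in mouse visceral fat as 71 rows (70 gene symbols) of the 39017 rows of the gene count tables. Members were taken by symbol alone: names that start with Hdac, Sirt, Tet, Kdm, Kmt, Ezh or Prmt followed directly by a digit, or with Dnmt or Setd. The naming rule itself uses no measured value. The rows comprised 18 lysine demethylases, 12 histone deacetylase rows, 11 SETD and SETDB proteins, 8 arginine methyltransferases, 7 sirtuins, 5 DNA methyltransferases, 5 KMT2 methyltransferases, 3 TET dioxygenases and 2 EZH methyltransferases. The prefix also admitted proteins whose known substrates lie partly or wholly outside chromatin, such as SETD3, which methylates actin, and the mitochondrial sirtuins SIRT3, SIRT4 and SIRT5. Histone writers and erasers with other names were described as a separate list.

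Wild type male C57BL/6J mice were fed from 9 to 10 weeks of age, and epididymal fat was separated after 12 weeks into floating adipocytes and pelleted stromal vascular cells (SVCs). Lean mice received a diet with 10% fat (LFD), obese mice a diet with 60% fat (HFD), and formerly obese mice HFD for 9 weeks and then LFD for 3 weeks (SW). Polyadenylated RNA was sequenced, and the libraries used were 3 per diet for adipocytes, and 1 LFD, 2 HFD and 3 SW libraries for SVCs. Nothing in the labels ties a library to a single mouse, so the p-values measure the spread between these libraries, which may be technical in part.

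DNMT1 copies DNA methylation after replication, DNMT3A and DNMT3B set it anew, DNMT3L assists them without catalytic activity of its own, and TET enzymes oxidise methylcytosine as a step toward its removal. KMT2 and SETD1 proteins methylate lysine 4 of histone H3, a mark of active promoters, whereas EZH1 and EZH2 methylate lysine 27 in the Polycomb repressive complex. KDM enzymes remove lysine methylation with iron and oxoglutarate or with flavin, deacetylases of the HDAC type use zinc, and sirtuins consume NAD. Because DNA and histone marks can outlast the signal that set them, these enzymes are often discussed as carriers of metabolic memory, and several draw their cofactors directly from intermediary metabolism.

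Sequence before a listed transcript start is shown for Dnmt1, Dnmt3a and Ezh2, 3 members that stood higher in obese adipocytes. The 250 bases before the start, which can include sequence transcribed from a start farther upstream, are set beside the levels. They were taken from RefSeq (GRCm38.p6), choosing for each gene the start whose window held the most CG pairs, and lie at chr9:20952624-20952873 on the minus strand for Dnmt1, chr12:3806910-3807159 on the plus strand for Dnmt3a and chr6:47595031-47595280 on the minus strand for Ezh2. Capitals mark a match to an E2F motif, searched on both strands as TTTCCCGC, TTTGGCGC, TTTCGCGC or TTTGCCGC.
Dnmt1: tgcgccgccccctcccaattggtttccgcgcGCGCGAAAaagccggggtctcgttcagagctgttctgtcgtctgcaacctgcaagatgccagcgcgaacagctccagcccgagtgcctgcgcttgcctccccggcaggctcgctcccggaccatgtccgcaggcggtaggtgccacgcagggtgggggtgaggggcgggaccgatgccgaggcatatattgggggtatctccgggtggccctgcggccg
Dnmt3a: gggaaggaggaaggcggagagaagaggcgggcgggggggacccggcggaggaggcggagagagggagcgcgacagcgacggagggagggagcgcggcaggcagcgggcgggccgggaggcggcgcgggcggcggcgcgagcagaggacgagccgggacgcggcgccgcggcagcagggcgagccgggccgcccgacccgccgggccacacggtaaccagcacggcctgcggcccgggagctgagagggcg
Ezh2: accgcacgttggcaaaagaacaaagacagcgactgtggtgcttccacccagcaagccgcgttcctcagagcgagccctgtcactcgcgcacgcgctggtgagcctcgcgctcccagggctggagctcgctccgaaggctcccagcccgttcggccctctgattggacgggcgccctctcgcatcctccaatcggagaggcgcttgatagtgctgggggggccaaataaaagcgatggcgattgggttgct
The window of Dnmt1 held 26 CG pairs, that of Dnmt3a 40 and that of Ezh2 23. The median was 17 over the 57 members matched by symbol and 6 over all 27025 genes in the RefSeq table. No filter on gene type or expression was applied to that table, and a background of expressed genes was not compared. Because each start was chosen by its CG pairs, every count is the highest among that gene's listed starts. An E2F match occurred in 2 of the 57 members, Dnmt1 and Sirt4 (3.51%), and in 1.94% of all genes. The GC box GGGCGG was found in 36 members (63.2%; 34.4% of all genes), and CCAAT in 25 (43.9%; 33.9% of all genes). Of the printed windows, Dnmt3a had 4 GC boxes and no CCAAT, Dnmt1 had 2 GC boxes and 3 CCAAT, and Ezh2 had no GC box and 3 CCAAT. These matches describe letters and not occupied sites, and some motif letters overlap each other. Each printed window lies within the annotated gene, whose upstream end is at 20959888 for Dnmt1, 3806007 for Dnmt3a and 47595341 for Ezh2. Which start is used in these cells was not tested.

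Total counts ranged from 5781902 to 23725647 per library, the LFD libraries of both fractions including the smallest. The adipocyte libraries carried 8.40% to 13.8% mitochondrial counts. Among SVCs, HFD library 411 carried 33.5% against 6.34% in HFD library 212, so the pair that represents obese SVCs differed within itself. Markers of the cells named by the labels were present in every group: the 9 adipocyte markers summed to 6708 to 25923 CPM (the count of a gene relative to the total count of its library, scaled with TMM factors within a fraction) in adipocyte libraries and to 291 to 797 CPM in SVCs. In bulk RNA, fewer cells of a type and less RNA per cell cannot be told apart.

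Of the 71 rows, Prmt8 and the pseudogene Dnmt3l-ps1 had no count in any library, which allows up to 3 counts in each, and Kdm4dl had 1 count in 1 library. After the filter on low counts, 67 members were tested in adipocytes and 68 in SVCs. Levels per kilobase used the longest annotated transcript, which Prmt1 and the Hdac4 row ENSMUSG00000073617 lack. Prmt1, with 275, 1037 and 384 counts in the LFD adipocyte libraries, could thus not be ranked. Among the rows ranked, the highest mean levels in lean adipocytes were those of Setd3 (50.5 CPM per kb), Hdac1 (37.6), Setd8 (32.8), Sirt2 (25.5), Hdac2 (23.7) and Hdac3 (21.3). The DNA methyltransferases were far lower there, at 2.48 CPM per kb for Dnmt1, 2.13 for Dnmt3a and 0.430 for Dnmt3b, and Tet1, at 0.0365 CPM per kb, was the lowest of the members tested in adipocytes. In HFD adipocytes the mean levels of Dnmt1 and Dnmt3a were 8.89 and 11.0 CPM per kb.

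In obese adipocytes, transcripts of Dnmt3a, Dnmt1, Setd1b, Ezh2, Kmt2e, Sirt2 and 5 lysine demethylases were higher than in lean ones, and those of Sirt5, Setd6, Hdac3 and Hdac2 lower. Between HFD and LFD, 17 members rose and 7 fell of 67 tested (edgeR quasi-likelihood test, Benjamini-Hochberg adjusted p below 0.05 over all genes). The members' shares, 25.4% higher and 10.4% lower, stand beside 26.5% higher and 25.0% lower among all 14461 genes tested. Their median log2 fold change was 0.12, against -0.03 over all genes. With upper-quartile scaling, which moved the median of all genes to -0.12, 15 rose and 12 fell, and with a correction for transcript length 16 rose and 13 fell.

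Dnmt3a showed the clearest rise. Its level was 25.7, 18.5 and 17.5 CPM in the LFD libraries and 107, 94.6 and 119 CPM in the HFD libraries, a log2 fold change of 2.38 ± 0.16 (SE; edgeR adjusted p = 7.13e-06). Dnmt1 went from 19.5, 13.8 and 10.4 CPM to 62.1, 39.8 and 54.6 CPM (log2 fold change 1.85 ± 0.22, edgeR adjusted p = 0.000125). For both enzymes every obese library lay above every lean one, as for 32.1% of all genes tested, and both calls held whichever library was left out. Dnmt3b, the other de novo enzyme, stayed between 1.43 and 2.24 CPM in lean and between 1.63 and 2.25 CPM in obese libraries. Dnmt3l ranged from 2.63 to 6.01 CPM over the same libraries, and neither of these passed the test.

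None of the TET enzymes passed between HFD and LFD in edgeR, none had an unadjusted p under 0.05, and neither DESeq2 nor limma-voom called one. Tet3, the highest of them per kilobase, stood at 28.3 to 36.3 CPM in lean and 29.1 to 38.6 CPM in obese libraries, with overlap. Tet2 stood at 9.10 to 10.2 CPM and 6.60 to 8.41 CPM, and Tet1 below 1 CPM throughout. The difference between the TET and DNMT families was not tested.

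Ezh2, the Polycomb methyltransferase of dividing cells, rose from 9.51, 7.22 and 7.91 CPM to 17.7, 16.1 and 18.1 CPM (log2 fold change 1.09 ± 0.14, edgeR adjusted p = 0.000183). Its homolog Ezh1, typical of resting cells, was at 61.4 to 70.4 CPM in lean and 53.9 to 54.5 CPM in obese adipocytes, without overlap but with an adjusted p of 0.0557 in the same edgeR test. Per kilobase, Ezh1 stayed the higher of the pair, with mean levels of 15.7 against 2.95 CPM per kb in lean and 12.9 against 6.21 CPM per kb in obese adipocytes.

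Among H3K4 methyltransferases, Setd1b had the largest change, from 4.76, 1.34 and 2.51 CPM in lean to 11.0, 8.27 and 12.9 CPM in obese libraries (log2 fold change 2.02 ± 0.46, edgeR adjusted p = 0.00461). Its paralog Setd1a stayed at 25.1 to 27.7 CPM and 26.2 to 28.2 CPM. Of the 5 KMT2 genes, Kmt2e, a chromatin reader with little methyltransferase activity, was called: 31.2, 26.8 and 26.6 CPM in lean and 63.0, 44.5 and 55.3 CPM in obese libraries (log2 fold change 0.95 ± 0.24). Setd5 and Setdb1, the latter a writer of the heterochromatin mark H3K9 methylation, rose by log2 fold changes of 0.67 and 0.65. Setd6, which methylates non-histone proteins such as RELA, fell from 11.7, 12.3 and 13.4 CPM to 6.54, 8.85 and 7.47 CPM without overlap, as 30.5% of all genes did downward, and Setd3 fell by 0.34 on the log2 scale.

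Of 16 lysine demethylases tested, 5 rose and 11 were not past the test, among them Kdm6b (20.9 to 23.6 CPM in lean, 16.1 to 18.2 CPM in obese libraries, edgeR adjusted p = 0.0776). Kdm2b, which recruits Polycomb complexes to CpG islands, went from 16.7, 12.2 and 14.6 CPM to 25.5, 21.2 and 24.9 CPM (log2 fold change 0.73 ± 0.14, edgeR adjusted p = 0.00198). Kdm5d, the Y-linked H3K4 demethylase, went from 9.20, 8.05 and 6.99 CPM to 15.4, 14.5 and 17.0 CPM, and its X-linked homolog Kdm5c rose as well, by 0.64 on the log2 scale. Kdm3b and Kdm4a, which act on H3K9, each rose by 0.67. In all 5 the obese libraries lay above every lean one, as for 32.1% of all genes tested. Of all genes, 26.5% were called higher.

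Of the 12 deacetylase rows, 2 rose and 4 fell, beside 26.5% and 25.0% of all genes. Hdac3, the catalytic subunit of the NCoR and SMRT corepressor complexes, fell from 72.2, 76.3 and 80.4 CPM to 51.8, 55.9 and 57.2 CPM (log2 fold change -0.47 ± 0.09, edgeR adjusted p = 0.00237). Hdac2 fell from 73.1, 80.1 and 77.8 CPM to 61.2, 63.2 and 63.6 CPM, while its partner Hdac1 (72.2 to 83.3 CPM in lean, 66.5 to 75.6 CPM in obese) was not called. Hdac7 was 70.6, 71.6 and 49.3 CPM in lean and 50.0, 38.2 and 43.1 CPM in obese libraries, so that these overlapped, and its call (log2 fold change -0.55 ± 0.17, edgeR adjusted p = 0.0193) was lost on leaving out any of 4 libraries and with a correction for GC content (-0.21, adjusted p = 0.38 in edgeR). Hdac9, a class II relative of Hdac7, rose by 0.44 on the log2 scale, and this was the call lost with a correction for transcript length.

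Hdac4 has 2 rows in the tables, and they went opposite ways. The row ENSMUSG00000026313 rose from 1.74, 0.413 and 0.396 CPM to 4.06, 3.42 and 4.47 CPM, and the row ENSMUSG00000073617, which is not in the annotation used here, fell from 9.36, 11.9 and 8.44 CPM to 4.13, 4.88 and 4.92 CPM. Summed over both rows, Hdac4 was at 8.83 to 12.3 CPM in lean and 8.19 to 9.39 CPM in obese libraries, which overlap. Whether reads of one row were assigned to the other was not tested, and the direction of either row alone is uncertain.

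The sirtuins split. Sirt2, a mainly cytosolic deacetylase and per kilobase the highest sirtuin in these adipocytes, rose from 54.9, 54.7 and 52.6 CPM to 88.0, 86.4 and 94.1 CPM (log2 fold change 0.73 ± 0.09, edgeR adjusted p = 0.00017). Sirt6, which deacetylates histone H3 at promoters and telomeres, rose from 3.33, 3.92 and 4.35 CPM to 5.11, 6.18 and 6.30 CPM (0.60 ± 0.19). Sirt5, which removes succinyl and malonyl groups in mitochondria, fell from 6.66, 10.9 and 10.2 CPM to 4.96, 4.42 and 4.56 CPM (-1.01 ± 0.21, edgeR adjusted p = 0.00254). Sirt1 ranged from 14.7 to 20.5 CPM in lean and from 14.3 to 18 CPM in obese libraries, and Sirt3 from 8.30 to 9.83 and from 7.59 to 10.3 CPM, neither past the test. Arginine methyltransferases hardly moved: Prmt7 alone was called, with a log2 fold change of 0.35.

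Markers of other cells moved with these results. All 11 macrophage markers rose between LFD and HFD adipocyte libraries, from a summed 707 to 1242 CPM up to 10371 to 12473 CPM, all 10 markers of dividing cells rose, from 30.3 to 104 CPM up to 225 to 292 CPM, and 6 of 9 adipocyte markers fell. Endothelial markers fell in 4 of 5 and mesothelial markers in 3 of 5, whereas fibroblast and progenitor markers rose in 3 of 6. Of 6 T cell and 4 B cell markers none passed, at summed levels of at most 17.6 CPM in these libraries. None of the markers in these lists was at 0 in every library of an adipocyte group. Their part in the differences of Dnmt1, Dnmt3a, Ezh2 and the other members was not tested.

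**Figure D1:**
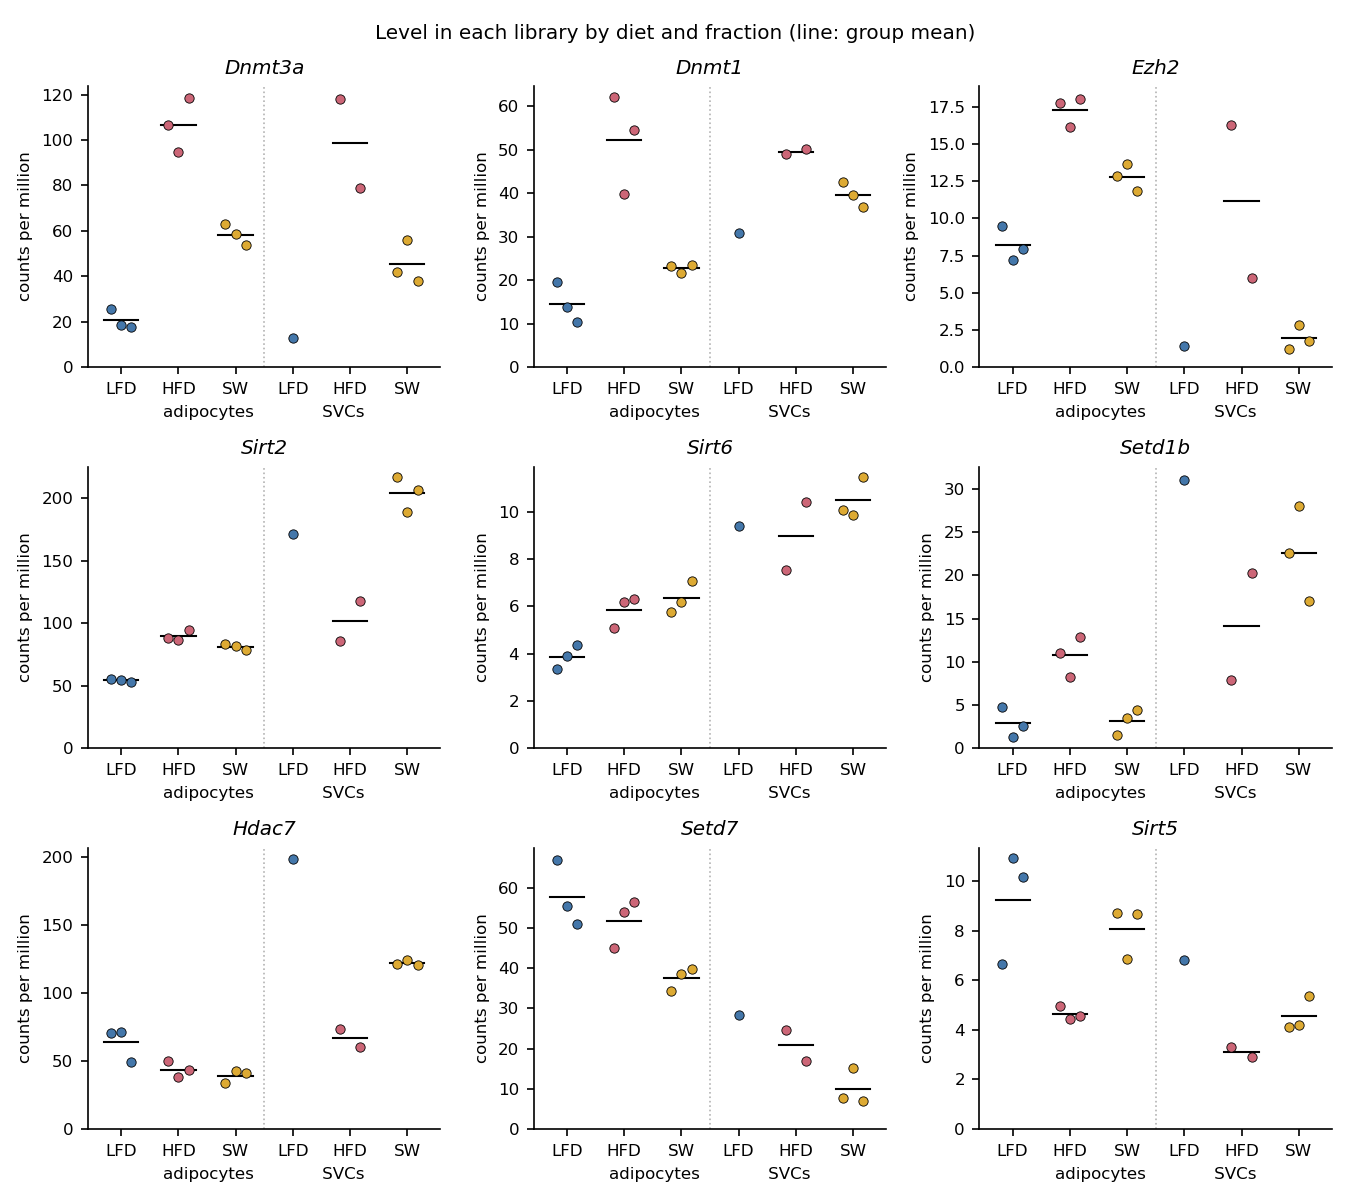
Level of 9 members (CPM, linear axes from 0) in every library of adipocytes and SVCs by diet; points are libraries and lines group means, with a single SVC library for LFD. In adipocytes Dnmt3a runs from 17.5 to 25.7 CPM in LFD, 53.6 to 62.9 CPM in SW and 94.6 to 119 CPM in HFD, while Sirt2 and Sirt6 in SW lie close to HFD.

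Whether these levels return after weight loss was asked by setting SW mice against both constant diets; the 2 comparisons with SW share its 3 libraries, and both comparisons with LFD share the lean ones, so each is given with its own values. Against LFD, 4 members were higher and 2 lower in SW adipocytes (5.97% and 2.99% of 67; all genes 10.9% and 6.18%). The 4 higher were Dnmt3a, Sirt6, Ezh2 and Sirt2, and the 2 lower were Hdac7 and Setd7.

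Dnmt3a was 62.9, 58.5 and 53.6 CPM in SW libraries, above every lean and below every obese library (19.1% of all genes lay above every lean library in SW, and 25.2% below every obese one). Its log2 fold change was 1.51 ± 0.16 against LFD (edgeR adjusted p = 0.000168) and -0.87 ± 0.15 against HFD (edgeR adjusted p = 0.00572). Ezh2 was intermediate too, at 12.8, 13.6 and 11.9 CPM, with log2 fold changes of 0.66 ± 0.14 against LFD and -0.44 ± 0.13 against HFD. The call of Ezh2 against LFD was lost without LFD library 405, and that against HFD with the GC correction (-0.33, adjusted p = 0.0663 in edgeR).

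Sirt2 remained at 83.1, 81.5 and 78.6 CPM in SW, all below the obese and far above the lean libraries, with a log2 fold change of 0.58 ± 0.09 against LFD (edgeR adjusted p = 0.00188); its difference from HFD did not pass. Sirt6 was 5.78, 6.19 and 7.08 CPM, overlapping the obese and not the lean libraries (0.71 ± 0.19, edgeR adjusted p = 0.028, lost on leaving out any of 5 libraries). Hdac7 was 34.3, 42.8 and 41.3 CPM, below all lean libraries and overlapping the obese ones (-0.69 ± 0.17 against LFD, lost on leaving out any of 3 libraries). For Setd7, an H3K4 monomethyltransferase with many non-histone substrates, SW lay below both constant diets (17.5% of all genes lay below every lean library): 34.3, 38.6 and 39.9 CPM, against 66.9, 55.5 and 51.0 CPM in LFD and 45.2, 54.1 and 56.4 CPM in HFD. Below every obese library lay 25.2% of all genes. The log2 fold change of Setd7 was -0.62 ± 0.14 against LFD and -0.46 ± 0.13 against HFD. With a correction for transcript length the call against HFD was lost and that against LFD kept.

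Against HFD, 5 members were higher and 17 lower in SW adipocytes (7.46% and 25.4%; all genes 15.6% and 15.9%), and the median over the members was -0.14 against 0.01 over all genes. Setd1b fell to 1.47, 3.48 and 4.36 CPM (-1.75 ± 0.43, edgeR adjusted p = 0.0158), within the range of the lean libraries. Dnmt1 fell to 23.2, 21.7 and 23.5 CPM (-1.19 ± 0.21, edgeR adjusted p = 0.00605), still above every lean library, although its difference from LFD missed the threshold (edgeR adjusted p = 0.0714). Kmt2e (15.7, 33.5 and 28.7 CPM) and Kdm5d (4.94, 10.3 and 9.01 CPM) overlapped the lean libraries, with changes of -1.05 ± 0.24 and -0.93 ± 0.23 from HFD.

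For the 5 members that rose from HFD to SW, every SW library lay above every obese one, as for 23.3% of all genes. Sirt5 reached 8.73, 6.85 and 8.66 CPM (0.80 ± 0.20), Setd6 12.6, 11.7 and 11.1 CPM (0.62 ± 0.15; 0.31 and no longer called with the length correction) and Hdac3 71.7, 72.0 and 71.0 CPM (0.38 ± 0.09). Sirt7, a nucleolar deacetylase of histone H3, rose to 40.1, 34.4 and 37.4 CPM (0.52 ± 0.12), above the 22.4 to 28.3 CPM of the obese and also above the 28.1 to 33.3 CPM of the lean libraries, although the difference from LFD did not pass. The Hdac4 row ENSMUSG00000073617 rose to 10.3, 8.83 and 9.59 CPM (1.03 ± 0.17) and the row ENSMUSG00000026313 fell to 0.631, 1.86 and 1.79 CPM (-1.43 ± 0.47), while their sum was 10.7 to 11.4 CPM.

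By family, 6 of the 16 lysine demethylases and 5 of the 11 SETD and SETDB proteins fell from HFD to SW, beside 15.9% of all genes, and Dnmt1 and Dnmt3a did so among the DNA methyltransferases. With a correction for transcript length 12 of all 22 calls were kept. Those lost included Setd2, Setd5, Setd7, Setdb1, Kdm2a, Kdm2b and Kdm3b of these families. Among the 2862 genes with the longest transcripts 994 fell. Tet3 fell from 36.2, 29.1 and 38.6 CPM to 22.6, 26.7 and 25.0 CPM (-0.48 ± 0.14, edgeR adjusted p = 0.0288). None of the 7 arginine methyltransferases tested passed in edgeR, DESeq2 or limma-voom, and none had an unadjusted p under 0.05. Without HFD library 403 the count fell from 22 to 6 and without HFD library 401 to 10. With the mean of HFD and SW set against LFD, a contrast that also passes members changed mainly in HFD such as Sirt5, 9 members were higher and 9 lower (13.4% and 13.4%; all genes 20.7% and 19.4%), and leaving out single libraries gave 7 to 25.

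In SW adipocytes macrophage markers stayed high: all 11 were above LFD and 3 were below HFD, at a summed 7512 to 10703 CPM. Markers of dividing cells were 8 of 10 lower than in HFD and 5 of 10 higher than in LFD. Their sums in SW (96.5 to 167 CPM) overlapped those in LFD (30.3 to 104 CPM). Fibroblast and progenitor markers summed to 1373 to 2045 CPM in LFD, 2196 to 2761 CPM in SW and 2876 to 4199 CPM in HFD. Of these, 2 of 6 were lower in SW than in HFD. Both lists stood in the order of groups seen for Dnmt1, Dnmt3a and Ezh2. So did the macrophage sums, at 707 to 1242 CPM in LFD and 10371 to 12473 CPM in HFD, which overlapped those in SW. Adipocyte markers rose in 4 of 9 from HFD. Endothelial markers were lower than in LFD in 5 of 5 and mesothelial markers in 2 of 5. From HFD, 1 of 5 tested T cell markers and 2 of 4 B cell markers rose. Their part in the members' levels was not tested.

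**Figure D2:**
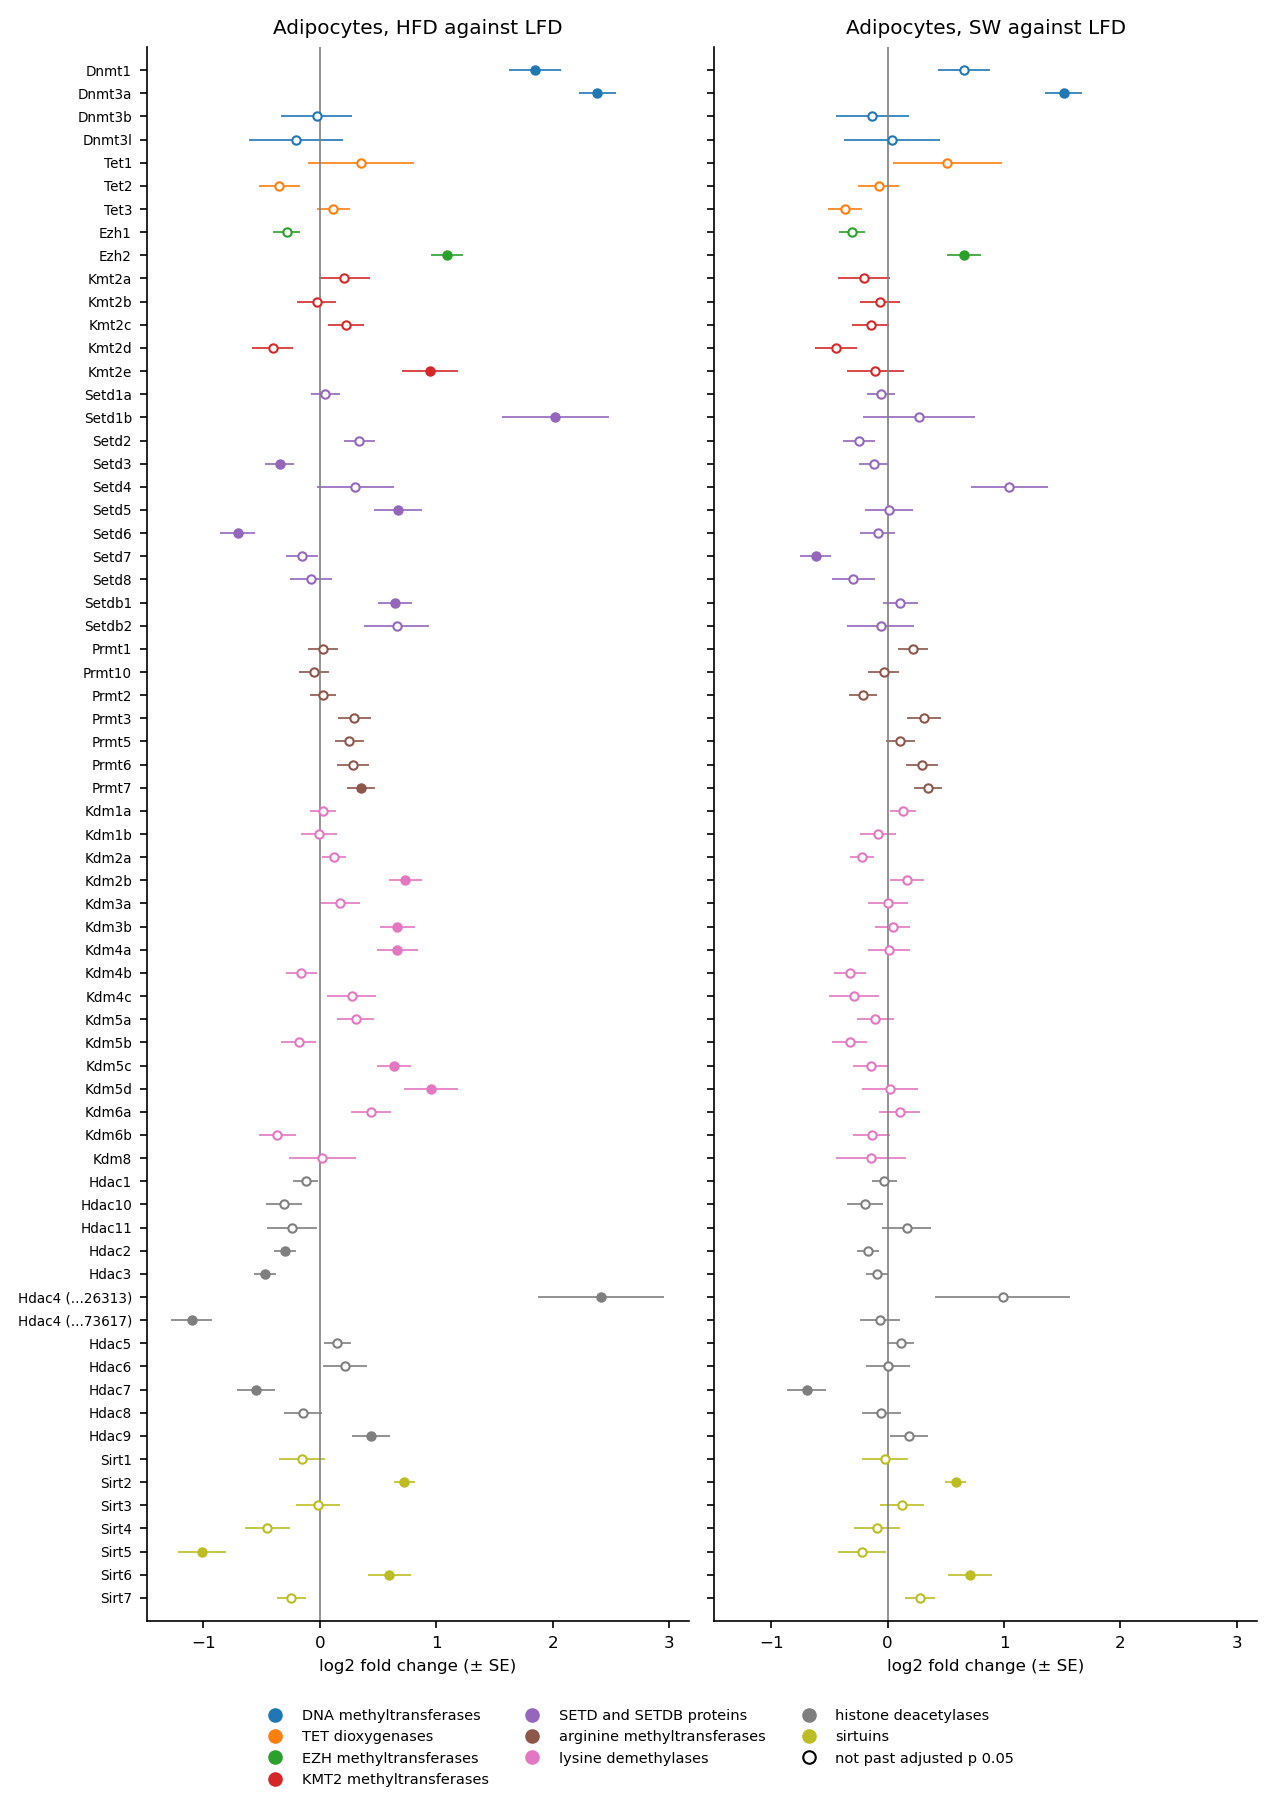
Log2 fold change (± SE) of the 67 members tested in adipocytes, HFD against LFD on the left and SW against LFD on the right, coloured by family; filled points passed the edgeR test. Of 24 filled points on the left and 6 on the right, Dnmt3a lies farthest from 0 among those past the test in SW, at 1.51; both panels share the lean libraries.

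Many of these enzymes have long transcripts, and the libraries differed in how they represented long transcripts. The longest annotated transcript had a median of 4663 bases over the tested members and of 3273 bases over all genes tested in adipocytes, and 29 of the 65 tested members with a length fell in the longest of 5 equal length classes (5156 bases and more). From HFD to SW, the log2 fold change correlated with length across all genes (Spearman rho -0.48 over 14321 genes), with medians from 0.52 in the shortest to -0.34 in the longest class. Over the 65 members rho was -0.52, and 15 of the 17 falls lay in the longest class. Of all 2862 genes in that class 994 fell. Genes share libraries and are not independent, so these correlations describe the tables only.

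Between HFD and LFD the trend ran the other way and was weaker, with rho 0.26 over all genes and 0.29 over the members, and class medians from -0.42 to 0.24. Of the 17 rises 12 lay in the longest class, which held 29 members and in which 1095 of all 2862 genes rose. Between SW and LFD it was close to flat (-0.11 over all genes and -0.17 over members). Single libraries carried it unequally: the 29 long members deviated from their mean over the 9 libraries by a median of 0.46 (log2) in HFD library 401 and of -0.38 in SW library 407, the extremes of the set.

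With a correction for transcript length in each library, 23 of the 24 calls between HFD and LFD and all 6 between SW and LFD were kept, and 12 of the 22 between SW and HFD. The 10 lost were Tet3 (-0.05 after correction), Setd2 (-0.20), Setd7 (-0.12), Kdm2b (-0.34), Kdm3b (-0.31), Setd5 (-0.34), Setdb1 (-0.28), Setd6 (0.31), the Hdac4 row ENSMUSG00000026313 (-1.08) and Kdm2a, whose sign turned from -0.34 to 0.04. Dnmt3a (2.10), Dnmt1 (1.63), Ezh2 (1.13), Sirt2 (0.89) and Setd1b (1.76) kept their rise in HFD after correction, and Dnmt1 (-0.90) and Dnmt3a (-0.45) their fall in SW. The median over the members from HFD to SW was 0.02 after correction. Taking the median length over a gene's transcripts in place of the longest weakened the trend in 2 comparisons. It was 0.13 over all genes and 0.10 over members between HFD and LFD, and -0.28 and -0.38 from HFD to SW. Between SW and LFD it was -0.10 over all genes but stronger over members, at -0.27 beside -0.17 with the longest transcript.

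**Figure D3:**
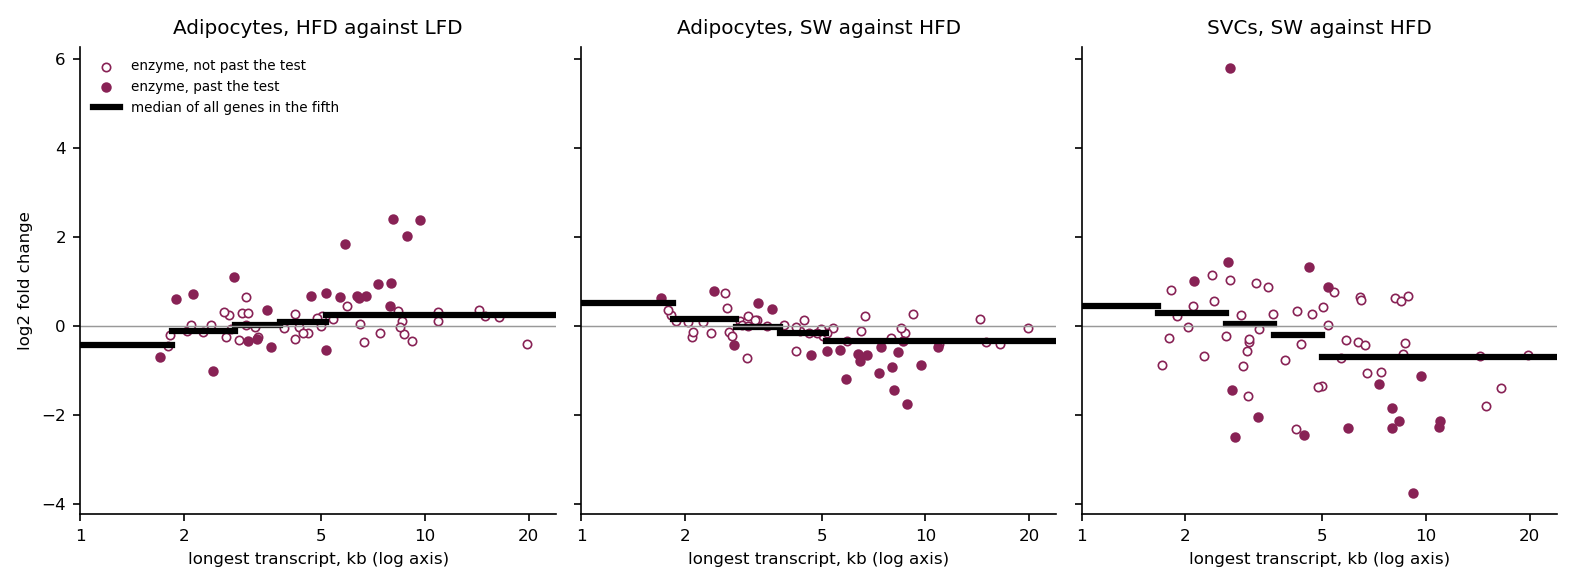
Log2 fold change against the length of the longest transcript (kb, log axis) in 3 comparisons; points are members, filled where past the test, and black bars are medians of all genes in 5 equal length classes, the end classes cut at the axis limits. The bars step from -0.42 to 0.24 for HFD against LFD in adipocytes, from 0.52 to -0.34 for SW against HFD in adipocytes and from 0.46 to -0.69 for SW against HFD in SVCs.

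Enzymes of the same pathways with other names were counted as well, without the correction for transcript length. The part of the length trend in these lists was not tested. Of 31 further writers and erasers, 16 rose and 1 fell between LFD and HFD (median 0.46), and 1 rose and 15 fell from HFD to SW (median -0.41). The shares of all genes were 26.5% higher and 25.0% lower between LFD and HFD, and 15.6% higher and 15.9% lower from HFD to SW; they stand as well beside the counts of partners and cofactor genes. The histone acetyltransferase Crebbp rose by 1.47 ± 0.32 and fell by 1.40 from HFD to SW, and Dot1l, which methylates H3 lysine 79, rose by 1.05 ± 0.13. Against LFD, 2 were higher in SW, Smyd5 (0.69 ± 0.13) and the acetyltransferase Hat1 (0.70 ± 0.18), and Nsd1 was lower.

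Of 26 partner subunits and adaptors, 9 rose and none fell between LFD and HFD, and 3 rose and 7 fell from HFD to SW. Uhrf1, which guides DNMT1 to newly replicated DNA, rose by 2.31 ± 0.35 (edgeR adjusted p = 0.000517), the largest change of that list, and Rcor1, a scaffold of the KDM1A complex, by 1.29 ± 0.16. In SW, Uhrf1 was still 1.28 ± 0.36 above LFD and the only partner so called. The Polycomb subunits Eed and Suz12 rose by 0.34 and 0.41 between LFD and HFD. Other Polycomb partners in the list did not pass: Rbbp4 (-0.04), Rbbp7 (0.08), Jarid2 (-0.19) and Aebp2 (0.10).

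Cofactor metabolism showed 3 rises and 6 falls of 23 genes between LFD and HFD. Ahcy, which clears the methyltransferase product S-adenosylhomocysteine, rose by 0.59 ± 0.10, and Parp1, a consumer of NAD, by 1.18 ± 0.12. Acss2, a source of acetyl-CoA from acetate, fell by 1.00, and Cd38, another NAD consumer, by 1.02. In SW, Cd38 and Nmnat2 were lower and Nmnat3 and Parp1 higher than in LFD.

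SVCs gave a different and less certain picture. From HFD to SW, 5 members were higher and 13 lower of 68 tested (7.35% and 19.1%; all genes 5.71% and 11.7%), with a median of -0.37 over members and 0.03 over all genes. One of the 5, Kdm4d, passed the filter on low counts only through the SW libraries, so that its call says nothing further. Adjusted p-values of the 18 calls lay between 0.0362 and 0.0466, close under the threshold. With 2 HFD libraries, the call count was 1 without HFD library 212, 35 without HFD library 411, 0 without SW library 412 or 413 (22 and 30 at an unadjusted p under 0.05) and 1 without SW library 414. With a correction for GC content edgeR called 0 members (25 at an unadjusted p under 0.05), DESeq2 called 30 and limma-voom 8.

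Tet2 had the largest fall, from 16.8 and 5.17 CPM in HFD to 0.103, 1.49 and 0.657 CPM in SW (-3.75 ± 0.92, edgeR adjusted p = 0.0441), and Tet3 went from 44.8 and 24.2 CPM to 4.33, 12.4 and 4.16 CPM (-2.28 ± 0.56). Ezh2 went from 16.3 and 6.00 CPM to 1.24, 2.81 and 1.75 CPM (-2.50 ± 0.58). In each the HFD libraries lay above all SW libraries, as for 30.0% of all genes tested, but library 212 was well above library 411. Sirt1, the nuclear NAD-dependent deacetylase, went from 16.2 and 5.38 CPM to 1.44, 2.89 and 1.42 CPM (-2.45 ± 0.60).

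Hdac9 (6.32 and 4.83 CPM in HFD; 0.928, 1.41 and 0.986 CPM in SW) fell by 2.30, as did the H3K27 demethylase Kdm6a (12.5 and 7.38 CPM; 1.75, 2.48 and 1.75 CPM). Dnmt3a went from 118 and 79.0 CPM to 41.7, 56.1 and 38.1 CPM (-1.12 ± 0.27), and -0.27 after the length correction. Dnmt1, at 49.0 and 50.1 CPM in HFD and 42.6, 39.6 and 36.8 CPM in SW, did not pass.

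Kdm4d, a testis-rich H3K9 demethylase, had 0 and 1 counts in HFD and 26, 89 and 4 counts in SW libraries, which is given as a description only. Hdac11 rose from 4.52 and 7.38 CPM to 15.8, 16.2 and 16.1 CPM (1.43 ± 0.31), and Kdm4b from 18.1 and 31.6 CPM to 61.9, 56.7 and 68.7 CPM (1.33 ± 0.30). Sirt2 rose from 85.3 and 118 CPM to 217, 189 and 206 CPM (1.01 ± 0.24) and Hdac7 from 73.8 and 60.4 CPM to 122, 124 and 121 CPM (0.87 ± 0.20). The SW libraries agree closely for these, apart from Kdm4d, and lie above both HFD libraries, as for 28.5% of all genes.

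Base composition moved with the SVC result. The 13 members that fell had transcripts with a median GC content of 44.4% and a median length of 7940 bases, and the 5 that rose a median GC content of 57.4% and a median length of 2695 bases. Across all genes the log2 fold change from HFD to SW correlated with GC content (rho 0.57 over 16149 genes) and with length (rho -0.28); over the 66 members with an annotated transcript rho was 0.68 and -0.37. Corrected for GC content, Hdac7 was at 0.03, Tet2 at -2.90 and Ezh2 at -1.47, nearer to 0 than before, while Tet3 at -2.78 and Dnmt3a at -1.46 were farther from it. Corrected for length instead, 16 of the 18 calls were kept. The part of these trends in single members was not tested beyond these corrections.

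The single lean SVC library was not tested against the others. For 33 of 68 members it lay below both HFD libraries and for 22 above both (48.5% and 32.4%; all genes 44.4% and 35.2%). It had 1.40 CPM of Ezh2, 2.44 CPM of Tet2, 3.49 CPM of Sirt1 and 8.56 CPM of Hdac2, each below both HFD libraries, and 199 CPM of Hdac7, 95.5 CPM of Kdm4b and 31.4 CPM of Hdac11, higher than in any other SVC library. Dnmt3a, at 12.9 CPM, was lower than in every other SVC library. Macrophage markers summed to 7979 CPM in it, to 13173 to 21251 CPM in HFD and to 17825 to 23270 CPM in SW SVCs. Fibroblast and progenitor markers summed to 15127 CPM in it, 4708 to 6706 CPM in HFD and 8643 to 10364 CPM in SW SVCs, the order of groups seen for Hdac7, Kdm4b and Hdac11, and mesothelial markers to 842, 25.0 to 126 and 118 to 153 CPM. Markers of dividing cells fell in 5 of 10 from HFD (173 to 214 CPM) to SW (70.8 to 81.4 CPM), and were 28.8 CPM in the lean library, with Bub1 at 0 there. These shifts and the members' were not separated.

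Of 26 partners in SVCs, 6 fell and 20 did not pass, beside 11.7% of all genes lower; among the 6 were the Polycomb subunits Suz12 (-2.96 ± 0.56) and Eed (-1.94 ± 0.33). Of the 31 other writers and erasers 7 fell and 1 rose. Of the cofactor genes 1 rose and 3 fell, among them Nampt, the rate-limiting enzyme of NAD salvage (-2.00 ± 0.36).

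Between the fractions of SW mice, 28 members were higher in adipocytes and 26 higher in SVCs of 68 tested (41.2% and 38.2%; all 17441 genes 32.8% and 35.6%). On a scale common to both fractions, adipocyte SW libraries had 7.12, 9.87 and 7.20 CPM of Tet2 against 0.121, 1.82 and 0.784 CPM in SVCs (2.96 ± 0.53, edgeR adjusted p = 0.000266). Sirt1 (11.4, 18.9 and 16.4 against 1.69, 3.54 and 1.70 CPM), Hdac2 (58.4, 61.4 and 64.1 against 7.51, 11.4 and 9.80 CPM) and Setd8, which monomethylates H4 lysine 20 (70.3, 53.4 and 72.9 against 9.32, 15.0 and 9.67 CPM), differed by 2.67, 2.67 and 2.51 on the log2 scale. Hdac9 differed by 2.83. For these genes every adipocyte library lay above every SVC library, as for 35.0% of all genes tested.

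Higher in SVCs were Setd1b (26.5, 34.3 and 20.4 CPM against 1.31, 3.11 and 3.92 CPM, -3.26 ± 0.49), Kdm4b (-2.44 ± 0.22), Hdac7 (143, 152 and 144 against 30.5, 38.2 and 37.1 CPM, -2.05 ± 0.17), Hdac11 (-1.92 ± 0.23) and Sirt2 (254, 231 and 246 against 74.0, 72.7 and 70.6 CPM, -1.75 ± 0.16). The 26 include Kdm4d, which had at most 2 counts in any adipocyte library and passed the filter only through SW SVCs, so that its call was fixed by the filter. In each of the others named every SVC library lay above every adipocyte library, as for 35.8% of all genes. By family, 7 of 12 deacetylase rows and 4 of 7 sirtuins were higher in SVCs, and 6 of 11 SETD and SETDB proteins and 2 of 3 TET enzymes higher in adipocytes. The difference between fractions correlated with GC content as well (rho -0.75 over 66 members and -0.50 over all genes), and with a GC correction 22 were higher in adipocytes and 20 in SVCs.

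In HFD mice the fractions differed in fewer members, 5 higher in adipocytes and 12 in SVCs (7.35% and 17.6%; all genes 12.9% and 16.2%). Dnmt3l (1.88 ± 0.54), Setd8 (1.43 ± 0.26), Setd7 (1.02 ± 0.29) and Hdac9 (0.93 ± 0.24) were higher in adipocytes, and Hdac10 (-1.21 ± 0.19), Sirt7 (-1.20 ± 0.17) and Hdac7 (-0.93 ± 0.18) in SVCs. The count was 30 without SVC HFD library 212 and 8 without SVC HFD library 411 or adipocyte HFD library 402.

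Whether the switch acted alike in both fractions was tested with an interaction term. The change from HFD to SW differed for 28 of 68 members, being more positive in adipocytes for 11 and more positive in SVCs for 17, Kdm4d included on the same terms (16.2% and 25.0%; all genes 15.7% and 11.4%). Tet2 was 6.71, 5.99 and 7.60 CPM in HFD and 7.12, 9.87 and 7.20 CPM in SW adipocytes, beside its fall in SVCs, an interaction of 3.79 ± 0.72 (edgeR adjusted p = 0.00328). Sirt2 did not pass in adipocytes and rose in SVCs (interaction -1.24 ± 0.23, edgeR adjusted p = 0.003), and Setd1b, which fell in adipocytes, did not pass in SVCs at 7.94 and 20.3 CPM in HFD and 22.6, 28.1 and 17.1 CPM in SW (-2.52 ± 0.69). Dnmt1, which fell in adipocytes and did not pass in SVCs, differed by -0.97 ± 0.30. Dnmt3a fell in both fractions, and its difference between them did not pass. With a GC correction 9 members were more positive in adipocytes and 5 in SVCs, and with upper-quartile scaling 14 and 13.

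**Figure D4:**
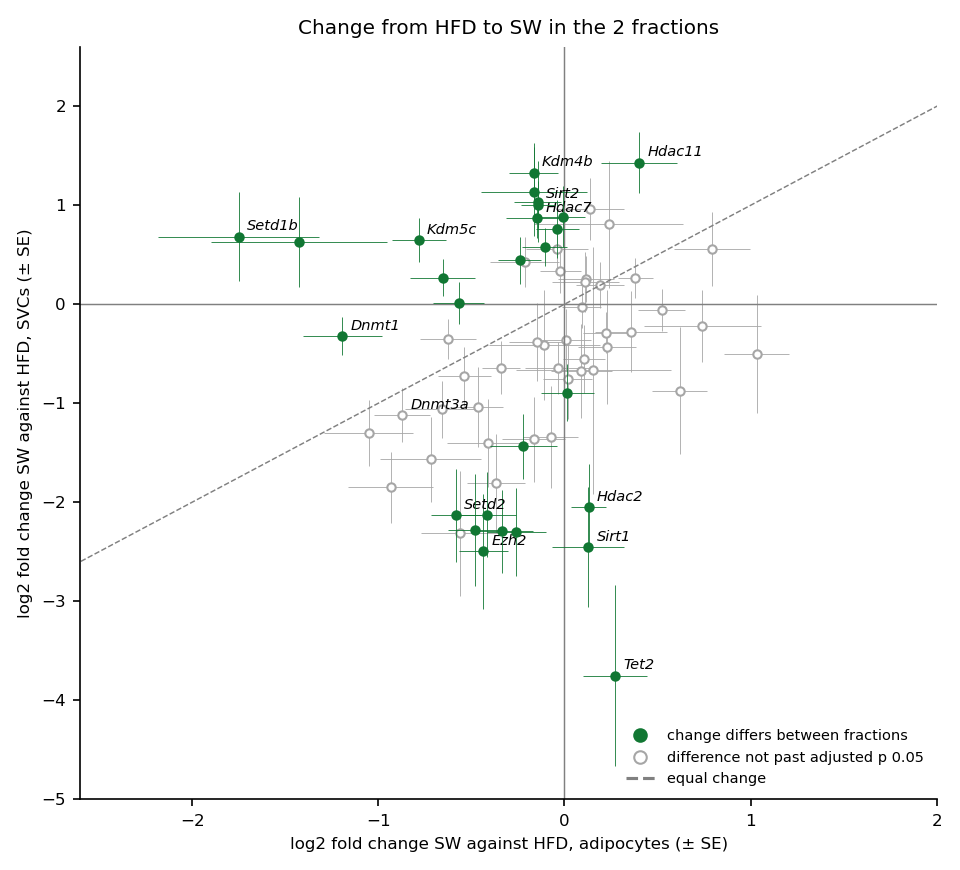
Log2 fold change from HFD to SW in adipocytes (x axis) and SVCs (y axis), each ± SE, for the members tested in both; green points differed between fractions by the interaction test and the dashed line marks equal change. Tet2, Ezh2 and Sirt1 lie far below the line (SVC values -3.75, -2.50 and -2.45), and Setd1b far above it.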

How the data were processed

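Polyadenylated RNA was sequenced from 9 adipocyte and 6 SVC libraries. The deposited values were expected counts per gene, which the authors estimated with RSEM after mapping reads with Bowtie2, and which were already whole numbers; the submitters' processing notes name the mouse build mm9, and versions were not given in the sources used here. Of 18 value columns 15 carried a name that matched labelled groups and 3 were not used. The labels hold 26 records for 18 libraries, listed as paired-end, as single or as both, some SVC libraries as single only. Whether several runs of a library were summed was not stated, and its part in the length and GC trends was not tested. Column numbers name libraries only. Total counts were 5781902 to 23725647 per library, which limits the precision for members below about 1 CPM. The SEs include the spread between libraries, whereas the limit given for genes without a count covers counting error only.

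Each fraction was fitted with edgeR 4.0.16 (R 4.3.3) by the quasi-likelihood test with TMM factors, after filterByExpr with a minimum count of 10 and Benjamini-Hochberg adjustment over all genes. Comparisons between fractions used 1 fit over the 15 libraries and 6 groups of both tables, whose rows matched. An SE is the log2 fold change divided by the root of its F statistic. Alternatives were limma-voom (limma 3.58.1), DESeq2 1.42.0, other scalings and filters, only the groups compared, leave-one-out fits, and per-library corrections for transcript length or GC content by a smooth trend (span 0.3). Length and GC content came from the longest GENCODE M21 transcript (GRCm38), found for 69 of 71 rows. The fits were checked on simulated counts. Exact permutation of 3 against 3 libraries cannot give a p below 0.1.

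Members, gene lists and tests were chosen with earlier results of these data known. Members were named by fixed numbers of largest changes past the threshold in each comparison, plus the DNMT, TET and EZH enzymes, Sirt1 and Sirt3. Further members given to complete a family or a short count (such as Setd1a, Hdac1, Kdm3b, Kdm4a, Setd5 and those of the HFD fraction comparison), and all genes of the other lists, were picked after their values were seen.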

Additional observations from a re-analysis of the deposited data

Results flagged for a closer look

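In edgeR, 28 of 68 members passed the interaction test, Kdm4d included. Of the members, 16.2% were more positive in adipocytes and 25.0% in SVCs, beside 15.7% and 11.4% of all genes. The test had 2 libraries for HFD SVCs, and its count depended on which libraries were kept. Values are the log2 change in adipocytes minus that in SVCs.

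More positive in adipocytes were Tet2 (3.79), Sirt1 (2.39), Hdac2 (2.03), Hdac9 (1.90), Ezh2 (1.88), Kdm6a (1.80), Tet3 (1.63), Kdm5a (1.56), Setd2 (1.39), Setd8 (1.08) and Prmt3 (0.80). In SVCs most of these were past the test as falls, Prmt3 being the exception with an edgeR adjusted p of 0.0688. Tet3, Ezh2 and Setd2 also fell in adipocytes, by less.

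More positive in SVCs were Setd1b (-2.52), the Hdac4 row ENSMUSG00000026313 (-2.17), Kdm4b (-1.58), Kdm5c (-1.53), Kdm8 (-1.40), Prmt5 (-1.25), Sirt2 (-1.24), Hdac7 (-1.13), Hdac11 (-1.12), Kdm4a (-1.03), Dnmt1 (-0.97), Prmt7 (-0.97), Hdac5 (-0.88), Setd1a (-0.79), Prmt2 (-0.78) and Kdm2b (-0.69). Kdm4d also passed (-6.16), but it had at most 2 counts in any adipocyte or HFD library and entered the fit only through SW SVCs, so its value has no measurable base. Setd1b, Kdm5c, Kdm4a, Dnmt1, Kdm2b and that Hdac4 row fell in adipocytes and did not pass in SVCs, while Sirt2, Hdac7, Kdm4b and Hdac11 rose in SVCs and did not pass in adipocytes.

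Over the 66 members with an annotated transcript this difference correlated with GC content (Spearman rho -0.65), and over all genes as well (rho -0.47). Mitochondrial counts of the 2 SVC libraries from HFD mice were 6.34% and 33.5%. Their part in the difference was not tested beyond the GC correction, under which 14 members were past the threshold.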

How the results depend on the processing

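No paired analysis was possible because the numbers in the column names match no replicate number in the labels. Of the changes chosen for recomputation none reversed; outside these, the fall of Kdm2a from HFD to SW in adipocytes turned from -0.34 to 0.04 with the length correction. Of 1138 recomputed values of single members, 142 lost their call and the others kept it.

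A required fold of 1.5, chosen after seeing the data, gave 13 members from HFD to SW in adipocytes and 8 for LFD against HFD and SW together. For SVCs, DESeq2 gave 30 members (11 higher, 19 lower), limma-voom 8 (4 and 4) and the GC correction 0, with 25 at an unadjusted p under 0.05 in edgeR. Between fractions in HFD, the GC correction gave 6 and a fit of only the groups compared 7. For the interaction the GC correction gave 14. With the median transcript length, rho was 0.1026 over members and 0.13 over all genes between HFD and LFD, -0.3752 and -0.2765 from HFD to SW, and -0.1991 and -0.1451 in SVCs. Between SW and LFD it was -0.2665 over members and -0.1025 over all genes. The length correction changed the split from HFD to SW in adipocytes to 7 higher and 10 lower, and in SVCs to 8 and 12; the GC correction changed that of LFD against both to 11 and 5. The causes were not tested.

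Leaving out single libraries gave 18 to 29 members between HFD and LFD, 6 to 24 from HFD to SW (lowest without HFD 403), 3 to 7 between SW and LFD (lowest without LFD 405), 7 to 25 for LFD against both (7 without LFD 405, 9 without LFD 406, 11 without HFD 403), 0 to 35 in SVCs, 47 to 56 between fractions in SW, 8 to 30 between fractions in HFD and 14 to 40 for the interaction (lowest without SVC HFD 212). The length trend over members ranged from 0.1992 to 0.381 between HFD and LFD, from -0.5978 to -0.4357 from HFD to SW and from -0.4423 to -0.3222 in SVCs, and over all genes from 0.2195 to 0.2846, from -0.5042 to -0.4014 and from -0.3646 to -0.2128. Where a fit left 1 SVC library of HFD, that library was assumed to vary like the other groups. Differences of the 1 lean SVC library were not tested.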
